A study of Mus musculus with 12 samples.

Results

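The genes described here are the 10 that make, adjust and break down polyamines: Odc1, Amd1, Srm and Sms for synthesis, Azin1, Oaz1 and Oaz2 for the control of the first step, and Sat1, Smox and Paox for breakdown. They were taken by symbol from the table of 56748 genes, and each symbol matched 1 gene. Of these 10, 9 passed the filter on low counts and were tested among 14794 genes, and Smox did not pass. RNA was measured by poly-A sequencing in 12 libraries of Ba/F3, a mouse haematopoietic line labelled as pro-B cells that normally needs interleukin-3. All 4 groups carried NRAS G12D, an activated RAS protein, and each held 3 libraries. The groups differed in the second construct: ZsGreen alone, a fluorescent protein that served as the control, or wild-type ETV6, ETV6 P214L or ETV6 I209S P214L joined to ZsGreen by an IRES. The groups are named ZsGreen, ETV6 WT, P214L and I209S P214L. In every group the cells were sorted into medium without interleukin-3 on day 0, given fresh medium on day 2 and harvested on day 3. ETV6 is a transcriptional repressor of the ETS family, and the series asked whether I209S, added to break a nuclear export sequence that P214L creates, returns transcription to that of ETV6 WT. Nothing in the labels tells if a group's 3 libraries were separate cultures or if a line was 1 clone, so p-values measure only the spread between these libraries. Fewer cells of a type and less RNA per cell cannot be told apart in such bulk RNA.

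Polyamines (putrescine, spermidine and spermine) are small positively charged molecules that bind RNA and DNA and are needed for growth. Ornithine decarboxylase (Odc1) makes putrescine, and the spermidine and spermine synthases (Srm, Sms) extend it with groups from decarboxylated S-adenosylmethionine, which S-adenosylmethionine decarboxylase (Amd1) supplies. Antizymes (Oaz1, Oaz2) bind the decarboxylase and send it to the proteasome, the antizyme inhibitor Azin1 binds antizyme in its place, and Sat1, Smox and Paox acetylate or oxidise polyamines for export and recycling. Protein and polyamine levels were not measured, and antizyme is set largely by translation, which RNA levels do not show.

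Library totals ran from 14301683 to 18607595 counts. Mouse Etv6, whose reads may include those of the constructs, averaged 81.7 CPM (counts scaled to a common library size by TMM) in ZsGreen, 109 in ETV6 WT, 103 in P214L and 99.1 in I209S P214L. It was called higher than ZsGreen in all 3 ETV6 groups (edgeR quasi-likelihood test, adjusted p 0.00164, 0.0433 and 0.0217), but the P214L call was lost without any 1 of the ZsGreen or P214L libraries, ETV6 WT 2 or I209S P214L 3 (adjusted p 0.0521 to 0.175). The I209S P214L call was lost without ZsGreen 2, ZsGreen 3 or I209S P214L 1 (adjusted p 0.0713 to 0.129). The labelled cell type was checked against its markers: 2 of 12 pro-B and B lineage markers reached a mean of 1 CPM in each group, and Igll1, Rag1 and Cd24a had no count in any library. The library ZsGreen 1 stood apart on the second principal component, at 70.7. Next came ETV6 WT 1 (22.4) and I209S P214L 1 (21.2), and the other libraries lay between -28.5 (P214L 1) and -1.54. ZsGreen 1, ETV6 WT 1 and I209S P214L 1 also had the lowest shares of counts from 18S ribosomal RNA, 2.92%, 1.58% and 1.35%. P214L 1 had the highest share, 5.90%. Markers of other blood cells differed between the groups. The summed level of 12 neutrophil and monocyte markers was 52.0 to 64.9 CPM in ZsGreen, 125 to 141 in ETV6 WT, 141 to 209.4 in P214L and 93.0 to 133 in I209S P214L. Of these 12, 8 reached a mean of 1 CPM in ZsGreen and in P214L, 3 in ETV6 WT and 1 in I209S P214L, Ly6g had no count in any group, and Adgre1 made up most of the sum in ETV6 WT and I209S P214L (means of 127 and 109 CPM). The summed level of 8 erythroid markers was 90.9 to 96.4, 259 to 354, 65.3 to 104 and 268 to 395 CPM in the same order of groups, and that of 6 megakaryocyte markers 1010 to 1072, 756 to 944, 831 to 894 and 649 to 744 CPM. Hba-a2 had no count in ZsGreen or P214L. Of 8 mast cell and basophil markers, 2 to 4 reached a mean of 1 CPM in a group, of 7 T lineage markers 1, and of 5 fibroblast markers 0. The part of these markers in the results below was not tested.

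The sequence just upstream of a start site is shown for Odc1, the gene of the first step, and for Sat1 and Sms, which moved the other way. RefSeq's promoter table, on build GRCm38.p6, held 8 of the 10 members, and Srm and Azin1 were not among them. Each line gives the 250 bases before a start, 5′ to 3′ on the gene's own strand, and Sms has a window for each of 2 starts. Capitals mark the E-box CACGTG, which is its own reverse complement, and CCGGAAG or its reverse complement CTTCCGG, an ETS-type site with its flank. The motifs do not overlap each other.

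Odc1, chr12:17544623-17544872, plus strand: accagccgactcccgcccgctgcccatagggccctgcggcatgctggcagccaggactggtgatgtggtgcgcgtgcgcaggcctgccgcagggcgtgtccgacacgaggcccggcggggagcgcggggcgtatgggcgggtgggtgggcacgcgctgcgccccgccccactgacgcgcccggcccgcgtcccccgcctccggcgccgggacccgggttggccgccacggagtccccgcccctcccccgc
Sat1, chrX:155216450-155216699, minus strand: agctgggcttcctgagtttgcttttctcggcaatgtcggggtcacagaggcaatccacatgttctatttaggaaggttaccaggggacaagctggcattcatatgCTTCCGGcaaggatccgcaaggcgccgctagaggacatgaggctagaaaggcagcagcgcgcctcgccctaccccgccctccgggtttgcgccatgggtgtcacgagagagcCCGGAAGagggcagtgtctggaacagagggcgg
Sms, chrX:157492288-157492537, minus strand: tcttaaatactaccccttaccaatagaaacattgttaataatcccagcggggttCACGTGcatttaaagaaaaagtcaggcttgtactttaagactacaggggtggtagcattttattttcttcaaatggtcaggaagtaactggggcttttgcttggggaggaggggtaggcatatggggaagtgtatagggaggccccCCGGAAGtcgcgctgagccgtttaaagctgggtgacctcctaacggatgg
Sms, chrX:157491369-157491618, minus strand: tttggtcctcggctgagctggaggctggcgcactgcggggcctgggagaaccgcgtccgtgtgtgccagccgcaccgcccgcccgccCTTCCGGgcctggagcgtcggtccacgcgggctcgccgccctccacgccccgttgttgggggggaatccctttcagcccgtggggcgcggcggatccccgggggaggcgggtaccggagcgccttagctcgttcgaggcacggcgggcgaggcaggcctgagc

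CCGGAAG stood in 4 of the members' 10 windows, which belong to Sms, Sat1 and Smox, and in 6.90% of all 32817 such windows. Sat1 had 2 copies and each Sms window had 1. The E-box stood in 1 of the 10, the first Sms window, and in 6.02% of all windows. The Odc1 window held neither motif. A match is a description of letters and no binding was measured, and nothing follows from the lack of one in a window of this size.

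The synthesis genes did not move as a block: Odc1, Srm and Amd1 fell in ETV6 WT and in I209S P214L, and Sms rose. Odc1 (ENSMUSG00000011179, chromosome 12, 17594795 to 17601506, mm39) stood at 248, 254 and 238 CPM in ZsGreen, 121, 114 and 118 in ETV6 WT, 193, 207 and 210 in P214L, and 121, 104 and 113 in I209S P214L. The 3 ZsGreen libraries were the highest and the 3 P214L libraries came next, without overlap, while ETV6 WT and I209S P214L overlapped each other below both. Against ZsGreen the log2 fold change was -1.07 (SE 0.0680, adjusted p 1.37e-09, edgeR quasi-likelihood test) in ETV6 WT, a level 2.09-fold lower, and -1.13 (adjusted p 5.27e-10) in I209S P214L. In P214L it was -0.28 (SE 0.0670, adjusted p 0.0208). That smaller fall was lost when ZsGreen 1, ZsGreen 2, P214L 1 or P214L 2 was left out (adjusted p from just above 0.05 to 0.125) and without the 4 libraries numbered 1 (-0.24, adjusted p 0.0606). P214L was higher than ETV6 WT by 0.79 on the log2 scale (adjusted p 8.45e-08), and I209S P214L was lower than P214L (-0.85, adjusted p 2.54e-08). Between I209S P214L and ETV6 WT the log2 difference was -0.06, with a 95% interval from -0.21 to 0.08.

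Srm, spermidine synthase (ENSMUSG00000006442, chromosome 4, 148675960 to 148679450), had the largest falls of the 9 tested members in ETV6 WT and I209S P214L. It stood at 121, 114 and 106 CPM in ZsGreen, 54.4, 43.1 and 42.4 in ETV6 WT, 92.9, 98.7 and 88.5 in P214L, and 44.5, 34.3 and 34.3 in I209S P214L. ZsGreen was highest and P214L second without overlap, and the lower 2 groups overlapped in 1 library, I209S P214L 1. The log2 fold change against ZsGreen was -1.29 in ETV6 WT (SE 0.110, adjusted p 5.11e-08) and -1.59 in I209S P214L (adjusted p 3.42e-09). In P214L it was -0.29 (95% interval -0.51 to -0.06), which did not pass the test over all genes (adjusted p 0.146), although the libraries did not overlap. It did pass when only those 2 groups were fitted (adjusted p 0.0178), and it is called in the authors' deposited table (log2 fold change -0.29, adjusted p 0.00588). P214L was 2.00-fold higher than ETV6 WT (log2 fold change 1.00, adjusted p 1.58e-06), and from P214L to I209S P214L the log2 fold change was -1.31 (adjusted p 5.90e-08).

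Amd1, S-adenosylmethionine decarboxylase (ENSMUSG00000075232, chromosome 10, 40163454 to 40178184), moved less. It stood at 124, 106 and 127 CPM in ZsGreen, 87.3, 89.4 and 105 in ETV6 WT, 107, 113 and 104 in P214L, and 89.4, 90.9 and 93.0 in I209S P214L. The ETV6 WT and I209S P214L libraries all lay below every ZsGreen library, the nearest pair at 105 and 106 CPM, and P214L overlapped both ZsGreen and ETV6 WT. The log2 fold change against ZsGreen was -0.34 in ETV6 WT (SE 0.0834, adjusted p 0.00319), -0.39 in I209S P214L (adjusted p 0.00110) and -0.14 in P214L (95% interval -0.32 to 0.03, adjusted p 0.403). The fall from P214L to I209S P214L (-0.24, adjusted p 0.0327) was lost without P214L 1, P214L 2 or any 1 of the I209S P214L libraries, with adjusted p from 0.0549 to 0.118, and without the 4 libraries numbered 1 (adjusted p 0.0655). Adding the counts of Amd2 and the 6 processed copies named Amd-ps, which hold 10.7% as many counts as Amd1, changed no Amd1 call.

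Sms, spermine synthase (ENSMUSG00000071708, chromosome X, 156226851 to 156275283), went the other way. Its levels were 101, 92.9 and 99.3 CPM in ZsGreen, 117, 140 and 134 in ETV6 WT, 99.9, 89.9 and 92.1 in P214L, and 130, 152 and 133 in I209S P214L. The ETV6 WT and I209S P214L libraries were all higher than those of ZsGreen and P214L, and each of those 2 pairs overlapped within itself. The log2 fold change against ZsGreen was 0.41 in ETV6 WT (SE 0.0817, adjusted p 0.000549), 0.50 in I209S P214L (adjusted p 7.61e-05) and -0.06 in P214L (95% interval -0.23 to 0.12, adjusted p 0.790). From P214L to I209S P214L it rose by 0.56 (adjusted p 3.76e-05). A copy named Sms-ps, listed apart in the table, held 27.6% as many counts as Sms and reads could be split between them. Sms-ps rose as well, from 25.7 to 37.7 CPM in ETV6 WT (log2 fold change 0.55, adjusted p 0.000361), and with both summed Sms rose by 0.44.

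**Figure D1:**
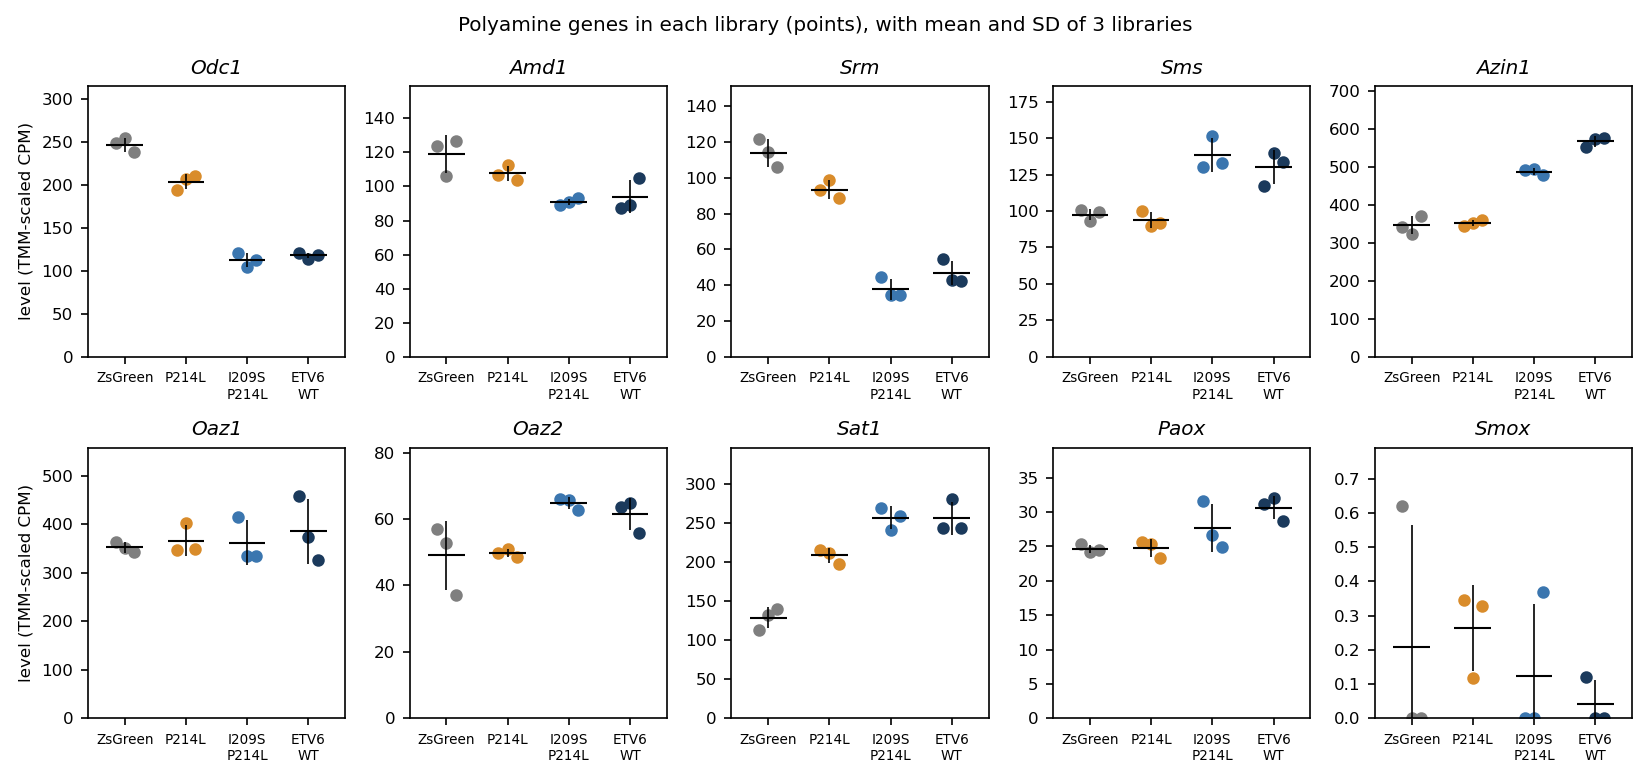
Levels of the 10 polyamine genes in TMM-scaled CPM (vertical axis, from 0) in each of the 12 libraries, by group, with the mean (horizontal bar) and SD (vertical bar) of 3 libraries. Odc1 and Srm step down from ZsGreen to P214L to the other pair of groups, Sat1 steps up from 128 CPM in ZsGreen to 208 in P214L and 256 in the other pair, and Azin1 in P214L sits at the ZsGreen level.

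Of the regulators, the antizyme inhibitor rose, and Oaz1, the most abundant member per length, was not called in any comparison. Azin1 (ENSMUSG00000037458, chromosome 15, 38487671 to 38519510) stood at 343, 324 and 371 CPM in ZsGreen, 552, 575 and 577 in ETV6 WT, 344, 353 and 362 in P214L, and 492, 494 and 478 in I209S P214L. ETV6 WT was highest and I209S P214L second without overlap, and the P214L libraries lay within the ZsGreen range. The log2 fold change against ZsGreen was 0.71 in ETV6 WT (SE 0.0610, adjusted p 5.26e-08), 0.50 in I209S P214L (adjusted p 3.32e-06) and 0.03 in P214L (95% interval -0.10 to 0.16, adjusted p 0.870). Between I209S P214L and ETV6 WT the log2 difference was -0.22 (95% interval -0.35 to -0.09, unadjusted p 0.00212), a difference that did not pass the test over all genes (adjusted p 0.691). Gm49077, on the opposite strand, overlaps Azin1 and holds 0.272% as many counts.

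Oaz1, antizyme 1 (ENSMUSG00000035242, chromosome 10, 80662490 to 80665124), averaged 353 ± 11.3 CPM (SD, n = 3) in ZsGreen, 386 ± 67.1 in ETV6 WT, 367 ± 32.4 in P214L and 362 ± 46.2 in I209S P214L. All 4 groups overlapped. The log2 fold changes against ZsGreen were 0.13, 0.06 and 0.04 for ETV6 WT, P214L and I209S P214L, and the 95% interval in ETV6 WT ran from -0.09 to 0.36 (adjusted p 0.371). Its widest group was ETV6 WT, from 326 to 459 CPM. The 2 highest libraries, ETV6 WT 1 (459 CPM) and I209S P214L 1 (415 CPM), also had the lowest shares of counts from 18S ribosomal RNA, 1.58% and 1.35%, where the other libraries had 2.92% to 5.90%, and the part of this in Oaz1 was not tested.

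Oaz2, antizyme 2 (ENSMUSG00000040652, chromosome 9, 65575283 to 65597582), had the widest relative spread in ZsGreen, at 57.1, 52.8 and 37.2 CPM. It stood at 63.6, 64.7 and 55.8 CPM in ETV6 WT, 49.9, 50.9 and 48.6 in P214L, and 65.9, 65.6 and 62.8 in I209S P214L. ETV6 WT overlapped ZsGreen, and I209S P214L lay above both ZsGreen and P214L. It was called higher than ZsGreen in ETV6 WT (log2 fold change 0.32, adjusted p 0.0396) and in I209S P214L (0.40, adjusted p 0.0111). Both calls were lost without ZsGreen 3 (0.14, adjusted p 0.244, and 0.22, adjusted p 0.0611), and the first was lost in 9 of 22 alternatives. From P214L to I209S P214L it rose by 0.38 (adjusted p 0.0193), a call lost without P214L 1, P214L 3 or I209S P214L 2 and without the 4 libraries numbered 1 (adjusted p 0.0510 to 0.0708). P214L and ETV6 WT did not overlap, and their log2 difference of -0.30 (adjusted p 0.0668) was called in 6 of 22 alternatives.

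Of the breakdown genes, Sat1 rose in all 3 ETV6 groups, Paox differed little and Smox was hardly detected. Sat1, spermidine/spermine acetyltransferase (ENSMUSG00000025283, chromosome X, 153996128 to 153999445), stood at 113, 133 and 139 CPM in ZsGreen, 244, 280 and 244 in ETV6 WT, 215, 212 and 198 in P214L, and 269, 241 and 259 in I209S P214L. Every ETV6 library was higher than every ZsGreen library. The P214L libraries lay between ZsGreen and the other groups without overlap, and ETV6 WT and I209S P214L overlapped. The log2 fold change against ZsGreen was 1.00 in ETV6 WT (SE 0.0825, adjusted p 3.70e-08), 1.00 in I209S P214L (adjusted p 2.72e-08) and 0.70 in P214L (SE 0.0824, adjusted p 4.34e-05). The P214L rise was called in all 22 alternatives. P214L was lower than ETV6 WT (-0.30, adjusted p 0.00985), a call lost without ETV6 WT 2 (-0.23, adjusted p 0.0669) or P214L 3 (-0.26, adjusted p 0.0640). I209S P214L was higher than P214L (0.30, adjusted p 0.00801), a call lost without P214L 3 (0.26, adjusted p 0.0513). I209S P214L and ETV6 WT differed by 0.00, with a 95% interval from -0.17 to 0.17. The summed neutrophil and monocyte markers given above were also higher in all 3 ETV6 groups than in ZsGreen, but not through the same genes. In ETV6 WT and I209S P214L the markers Lyz2 (8.83 CPM in ZsGreen, 0.762 and 0.371), S100a9 (6.60, 0.0557 and 0.231), Mpo (6.28, 1.08 and 0.759) and Itgam (5.40, 1.07 and 0.348) had lower means than in ZsGreen and Adgre1 a higher one. In P214L these 5 markers all had higher means than in ZsGreen. Their part in the Sat1 result was not tested.

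Paox, the peroxisomal polyamine oxidase (ENSMUSG00000025464, chromosome 7, 139695712 to 139717137), stood at 25.3, 24.2 and 24.5 CPM in ZsGreen, 31.2, 32.0 and 28.7 in ETV6 WT, 25.7, 25.4 and 23.3 in P214L, and 31.6, 26.6 and 24.9 in I209S P214L. ETV6 WT did not overlap ZsGreen or P214L, and I209S P214L overlapped all 3 others. It was called higher in ETV6 WT than in ZsGreen (log2 fold change 0.31, adjusted p 0.0314) and lower in P214L than in ETV6 WT (-0.30, adjusted p 0.0462). These calls were lost in 10 and 14 of 22 alternatives, among them the fit without the 4 libraries numbered 1 (adjusted p 0.0775 and 0.0952), and in the first comparison without ZsGreen 1, 2 or 3, ETV6 WT 1 or 2, or P214L 1 or 2. Paox overlaps Echs1, on the opposite strand, which holds 15324 counts in all against 5364 for Paox, and whether the counting used strand is not given in the sources used here.

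Smox, spermine oxidase (ENSMUSG00000027333, chromosome 2, 131333416 to 131367842), had 31 counts in all: 11, 0 and 0 in ZsGreen, 2, 0 and 0 in ETV6 WT, 5, 2 and 5 in P214L, and 0, 0 and 6 in I209S P214L. Over a group's summed counts this is 0.223 CPM (exact Poisson 95% interval 0.111 to 0.399), 0.0379 (0.00459 to 0.137), 0.257 (0.133 to 0.449) and 0.122 (0.0447 to 0.265), intervals that cover counting error only. A count of 0 in 1 library allows up to 3 counts, which is 0.160 to 0.209 CPM. Smox was too low for the filter, so no difference was tested here, and the few counts limit the size of change that could be seen.

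**Figure D2:**
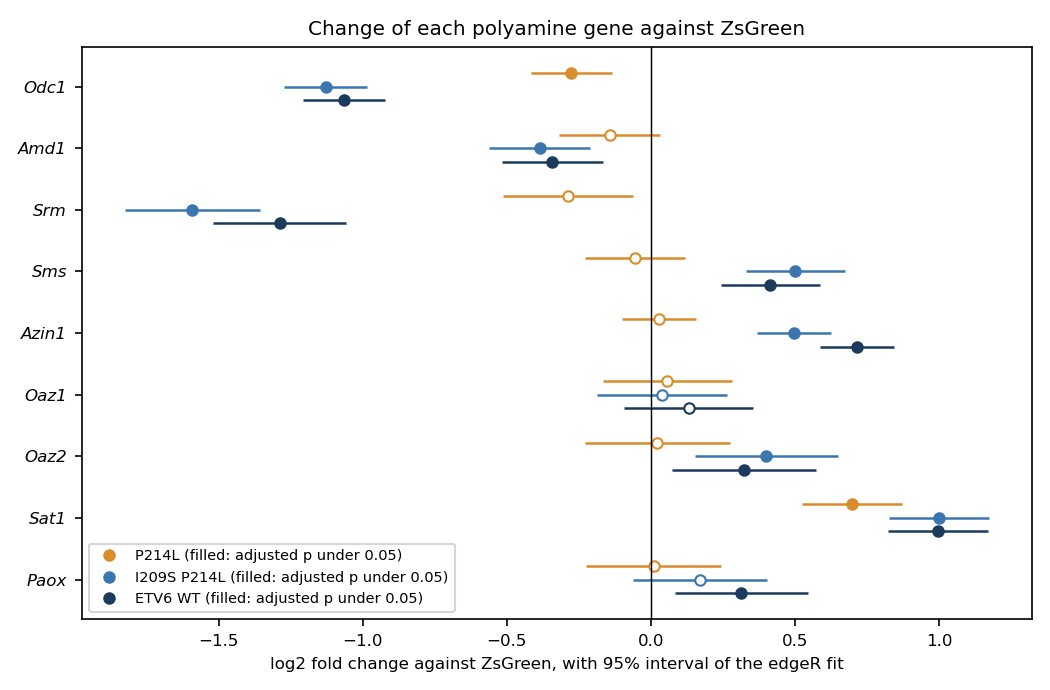
Log2 fold change of the 9 tested polyamine genes against ZsGreen (horizontal axis) for P214L, I209S P214L and ETV6 WT, with 95% intervals of the edgeR fit and filled points where the adjusted p is under 0.05. ETV6 WT and I209S P214L are filled for Odc1, Amd1, Srm, Sms, Azin1, Oaz2 and Sat1, ETV6 WT also for Paox at 0.31, and P214L only for Odc1 at -0.28 and Sat1 at 0.70.

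Read over the list, 8 of the 9 tested members were called in ETV6 WT against ZsGreen, beside 37.7% of all genes tested. Of these, 5 were higher (19.5% of all genes) and 3 lower (18.2%), and 7 of the 9 did not overlap (46.2%). In I209S P214L against ZsGreen 7 were called (41.5%), 4 higher (20.8%) and 3 lower (20.7%), and 7 did not overlap (47.8%). In P214L against ZsGreen 2 were called (5.08%), Sat1 higher (3.47%) and Odc1 lower (1.61%), and 3 did not overlap (25.7%). These 3 comparisons share the ZsGreen libraries. The median log2 fold change of the members was 0.31 in ETV6 WT, 0.17 in I209S P214L and 0.01 in P214L, beside 0.03, 0.03 and 0.01 over all genes. The summed erythroid markers were likewise higher in ETV6 WT and I209S P214L than in ZsGreen and P214L, and their part in these counts was not tested.

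The comparison of P214L with ETV6 WT called 6 members (29.2% of all genes tested), Odc1 and Srm higher (14.6%) and Sms, Azin1, Sat1 and Paox lower (14.6%). In it 7 did not overlap (45.4%), and the median log2 fold change was -0.30 beside -0.00 over all genes. From P214L to I209S P214L 7 were called (33.0%): Sms, Azin1, Oaz2 and Sat1 higher (15.9%), and Odc1, Amd1 and Srm lower (17.1%). Here too 7 did not overlap (48.2%), with a median of 0.16 beside 0.00. No member was called between I209S P214L and ETV6 WT by edgeR's quasi-likelihood test, where 5 genes of all tested were (0.0338%, with 0.0135% higher and 0.0203% lower), nor by DESeq2 or limma-voom. In that comparison 2 members, Srm (-0.30) and Azin1 (-0.22), had an unadjusted p under 0.05, as did 3.46% of all genes tested, and 1 member, Azin1, did not overlap (8.33%). The test of any difference among the 4 groups called 7 of the 9 (41.0%), all but Oaz1 and Paox (adjusted p 0.771 and 0.0727).

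The change made by I209S on the P214L background can be set beside the change made by ETV6 WT over ZsGreen without sharing a library. By arithmetic, their difference is also the change from ETV6 WT to I209S P214L minus that from ZsGreen to P214L. It is therefore not independent of those 2 comparisons, given above. The test of the difference between these 2 changes called 1 member, Sat1, beside 1.26% of all genes, and 1.14% of all genes were called with a negative difference, as Sat1 was. Sat1 rose by 1.00 from ZsGreen to ETV6 WT and by 0.30 from P214L to I209S P214L, a difference of -0.69 (SE 0.115, adjusted p 0.00300), called in all 21 alternatives. Odc1 fell by 1.07 and by 0.85, and its difference of 0.21 (95% interval 0.01 to 0.41) did not pass the test over all genes (adjusted p 0.466). Azin1 rose by 0.71 and by 0.47, and its difference of -0.25 (95% interval -0.43 to -0.07) did not pass either (adjusted p 0.252). These were, with Sat1, the 3 members with an unadjusted p under 0.05, as 9.89% of all genes had. For Amd1 the difference was 0.10, with a 95% interval from -0.15 to 0.35.

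**Figure D3:**
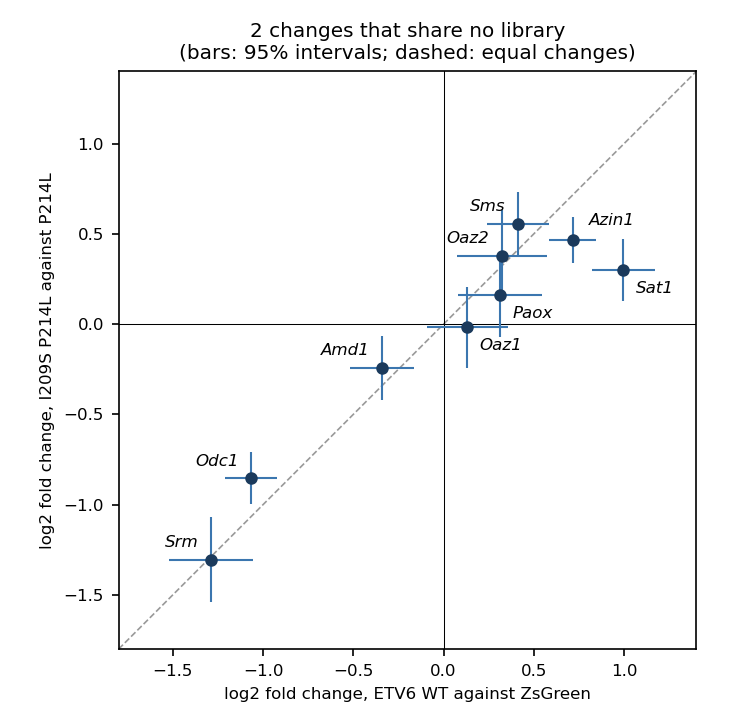
Log2 fold change of each tested polyamine gene from P214L to I209S P214L (vertical axis) against that from ZsGreen to ETV6 WT (horizontal axis), with 95% intervals as bars and a dashed line where both are equal. Sat1 lies farthest from the line, at 1.00 and 0.30.

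Per gene length, in the authors' FPKM (fragments scaled for gene length and depth), the order of the members differed between groups. In ZsGreen, Oaz1 (137 ± 4.58 FPKM, SD, n = 3) was followed by Odc1 (71.9 ± 2.42) and Srm (70.8 ± 4.85), whose libraries overlapped, then Azin1 (55.0 ± 3.75), Sat1 (46.0 ± 4.76) and Amd1 (33.4 ± 3.14). Oaz2 (16.3 ± 3.50) and Sms (16.1 ± 0.690) overlapped, and Paox (4.99 ± 0.123) came last of the tested genes. In P214L, Sat1 stood at 74.2 FPKM, above Odc1 (59.0), Srm (57.7) and Azin1 (55.7). In ETV6 WT, Sat1 (91.1) and Azin1 (89.7) came next after Oaz1 (149), and Odc1 (34.2), Srm (28.8) and Amd1 (26.2) followed. In I209S P214L the order was Oaz1 (141), Sat1 (92.0), Azin1 (77.7), Odc1 (32.9), Amd1 (25.6), Srm (23.5) and Sms (22.9).

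Ratios taken within a library do not depend on library scaling and are given as a description. The ratio of Odc1 to Sat1 in FPKM, a synthesis gene over a breakdown gene, was 1.39 to 1.78 in ZsGreen, 0.732 to 0.865 in P214L, 0.332 to 0.404 in ETV6 WT and 0.353 to 0.365 in I209S P214L. It passed from above 1 to below 1 in all 9 ETV6 libraries. The ratio of Odc1 to Oaz1 averaged 0.525, 0.419, 0.233 and 0.235 in the same order of groups, and that of Azin1 to Oaz1 0.402, 0.396, 0.615 and 0.556. The ratio of Srm to Sms averaged 4.39 and 3.74 in ZsGreen and P214L, and 1.37 and 1.04 in ETV6 WT and I209S P214L.

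**Figure D4:**
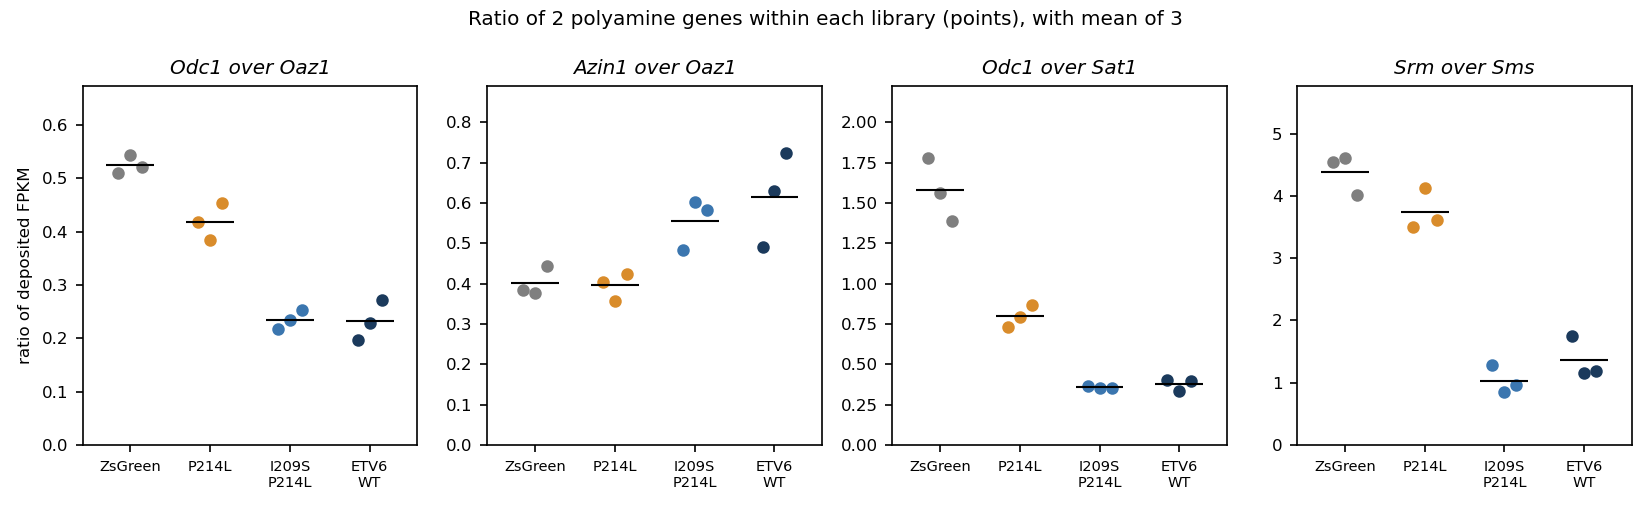
Ratio of the deposited FPKM of 2 polyamine genes (vertical axis, from 0) within each of the 12 libraries, by group, with the mean of 3 as a bar. For Odc1 over Sat1 the ZsGreen libraries lie between 1.39 and 1.78 and all other libraries below 1.

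Genes around the pathway were read from lists written by hand, beside the 37.7% of all genes called in ETV6 WT and the median over all genes of 0.03. A list of 6 held further polyamine enzymes and antizyme genes, and also Nqo1, a quinone oxidoreductase. Of its 3 tested genes, 1 was called in ETV6 WT (median log2 fold change 0.24): Azin2, a second antizyme inhibitor. It stood at 2.03, 3.997 and 1.86 CPM in ZsGreen, 13.6, 11.8 and 11.6 in ETV6 WT, 3.19, 3.66 and 4.45 in P214L, and 15.7, 18.1 and 12.6 in I209S P214L. The ETV6 WT and I209S P214L libraries were far above the others, with log2 fold changes against ZsGreen of 2.24 (adjusted p 1.95e-06) and 2.56 (adjusted p 3.20e-07). In P214L it was 0.53 (95% interval -0.04 to 1.10, adjusted p 0.326). Nqo1 and Amd2 were not called in any comparison.

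All 5 tested genes of 11 for ornithine and arginine supply were called both in ETV6 WT and in I209S P214L, 4 lower and 1 higher, and none in P214L (edgeR, beside 37.7%, 41.5% and 5.08% of all genes). In P214L, Aldh18a1 had a log2 fold change of -0.31 (adjusted p 0.0648), which was called in 8 of 22 alternatives, among them DESeq2 (adjusted p 0.0187), only the groups compared (0.0170) and the fits without ETV6 WT 1 or I209S P214L 1 (0.0255 and 0.0470). The median log2 fold change was -0.42, -0.41 and -0.13 in ETV6 WT, I209S P214L and P214L. The lower ones in ETV6 WT were Aldh18a1, which makes the precursor of proline and ornithine (-0.52, adjusted p 0.000209), Oat, ornithine aminotransferase (-0.42, adjusted p 0.000755), the arginine transporter Slc7a1 (-0.34, adjusted p 0.000605) and the mitochondrial ornithine carrier Slc25a15 (-0.50, adjusted p 0.0190). The Slc25a15 call was lost with no filter (-0.48, adjusted p 0.102) and without ETV6 WT 2 (-0.44, adjusted p 0.0812). Asl, argininosuccinate lyase, rose (0.51, adjusted p 0.000424). Both arginases, Arg1 and Arg2, were below the filter at means under 1 CPM in every group.

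In the methionine cycle and methylthioadenosine salvage, all 10 genes were tested, and 6 were called in ETV6 WT and 6 in I209S P214L, each time 2 higher and 4 lower (beside 19.5% and 18.2% of all genes in ETV6 WT, and 20.8% and 20.7% in I209S P214L), with medians of -0.27 and -0.32. Among them were Ahcy, adenosylhomocysteinase (-0.89 in ETV6 WT, adjusted p 1.82e-05), and Mat2a, which makes S-adenosylmethionine (-0.34, adjusted p 0.000449), while its regulatory subunit Mat2b rose (0.30, adjusted p 0.00264). The call of Mtrr, methionine synthase reductase, in ETV6 WT (-0.34, adjusted p 0.0429) was lost in 9 of 22 alternatives, among them the fits without ZsGreen 1 or 3, ETV6 WT 1 or 3, or P214L 1 or 3 and the one without the 4 libraries numbered 1 (adjusted p 0.0510 to 0.233). Mtap, which clears the methylthioadenosine left by Srm and Sms, was the 1 gene of this list called in P214L. It stood at 432, 432 and 412 CPM in ZsGreen, 572, 567 and 598 in ETV6 WT, 285, 282 and 295 in P214L, and 581, 592 and 615 in I209S P214L. P214L was the lowest group, below ZsGreen, and the other ETV6 groups were the highest. Its log2 fold change against ZsGreen was 0.44 in ETV6 WT (adjusted p 5.50e-06), 0.49 in I209S P214L (adjusted p 1.62e-06) and -0.57 in P214L (adjusted p 7.10e-06). From P214L to I209S P214L it rose by 1.05 (adjusted p 1.57e-10), more than from ZsGreen to ETV6 WT by 0.61 (SE 0.0795, adjusted p 0.000370).

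Eif5a, the translation factor that carries hypusine, a residue built from spermidine, was the 1 gene called of 3 tested in its list, whose median in ETV6 WT was -0.17. Its libraries held 1113 to 1125 CPM in ZsGreen, 557 to 732 in ETV6 WT, 1015 to 1071 in P214L and 569 to 646 in I209S P214L. It fell by 0.81 on the log2 scale in ETV6 WT (adjusted p 3.01e-07) and by 0.90 in I209S P214L (adjusted p 6.17e-08), and in P214L it was -0.10 (adjusted p 0.542) although the libraries did not overlap. The hypusine enzyme Dohh was not called by edgeR in any comparison. Dhps was not called either, but its difference from P214L to I209S P214L (0.33, adjusted p 0.0543) passed in 7 of 22 alternatives, among them DESeq2 (adjusted p 0.0431) and the fits without ZsGreen 1, without I209S P214L 1 or without the 4 libraries numbered 1 (adjusted p 0.0374, 0.0337 and 0.0334). Of 5 tested polyamine transport genes among 10, 4 were called in ETV6 WT, 2 higher and 2 lower, 5 in I209S P214L (3 higher, 2 lower) and 0 in P214L (beside 37.7%, 41.5% and 5.08% of all genes), and the median in ETV6 WT was 0.27. These counts moved with the alternatives: Atp13a4 in I209S P214L (2.18, adjusted p 0.0388) was lost in 11 of 21, with adjusted p up to 0.113 when I209S P214L 3 was left out. Atp13a4 was low, at means of 0.378 CPM in ZsGreen and 1.75 in I209S P214L, with at most 38 counts in a library. In ETV6 WT, Slc3a2 (0.27, adjusted p 0.0163) was lost without ZsGreen 2, ZsGreen 3 or ETV6 WT 1 and with only the groups compared (adjusted p 0.0583 to 0.0937), and Atp13a2 (-0.30, adjusted p 0.0249) without ZsGreen 2, ETV6 WT 2 or ETV6 WT 3 (0.0692 to 0.148). In P214L, Slc3a2 was called in 4 of 22, among them the fit without the 4 libraries numbered 1 (0.29, adjusted p 0.0257). Slc22a3, an organic cation transporter, went from 2.64 CPM in ZsGreen to 6.67 in ETV6 WT and 9.83 in I209S P214L (log2 fold change 1.34, adjusted p 0.000163, and 1.89, adjusted p 3.23e-06), and stood at 2.01 in P214L. Atp13a3, a polyamine transporting ATPase, fell in ETV6 WT (-0.27, adjusted p 0.00187) and was 0.17 in P214L (adjusted p 0.119).

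In the MYC network, which regulates Odc1 in many cell types, 5 of 9 tested genes were called in ETV6 WT (4 higher, 1 lower), 6 in I209S P214L (5 higher, 1 lower) and 1 in P214L (beside 37.7%, 41.5% and 5.08% of all genes), and the median in ETV6 WT was 0.20. Of the higher ones, the Mga call in I209S P214L (0.20, adjusted p 0.0401) was lost in 14 of 22 alternatives (adjusted p up to 0.170), among them every fit that left out a ZsGreen, P214L or I209S P214L library and that without the 4 libraries numbered 1. The Mxd4 call in ETV6 WT (0.24, adjusted p 0.0133) was lost without ZsGreen 2, ETV6 WT 2 or the 4 libraries numbered 1 (adjusted p 0.0502 to 0.0645). The lower one was Myc, at 188 CPM in ZsGreen, 112 in ETV6 WT, 176 in P214L and 106 in I209S P214L. Its log2 fold change against ZsGreen was -0.75 in ETV6 WT (adjusted p 2.32e-06), and in P214L it was -0.09, which did not pass the test. Mxd1, whose product competes with MYC for its partner MAX, rose from 27.8 to 67.0 CPM in ETV6 WT (1.27, adjusted p 4.58e-09) and to 72.0 in I209S P214L, and averaged 34.4 CPM in P214L (0.30, adjusted p 0.0614, called in 3 of 22 alternatives, with DESeq2 at 0.0380). Mxi1 and Mnt, of the same kind, rose by 0.43 and 0.50 in ETV6 WT (adjusted p 5.70e-05 and 0.000273). The gene called in P214L was Mycn (-0.41, adjusted p 0.0347), chosen after its values were seen, and that call was lost without any 1 of the ZsGreen libraries, P214L 1 or P214L 3 (adjusted p 0.0680 to 0.160). Mycn did not follow Myc: it averaged 193 CPM in ZsGreen, 221 in ETV6 WT, 145 in P214L and 177 in I209S P214L. The Mycn difference from P214L to I209S P214L was not called in the main fit, but was called in 12 of 22 alternatives. Its fall in P214L against ETV6 WT (-0.60, adjusted p 0.000318) was called in all 22 alternatives, and Odc1 was higher there. The part of Myc or Mycn in the Odc1 result was not tested.

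**Figure D5:**
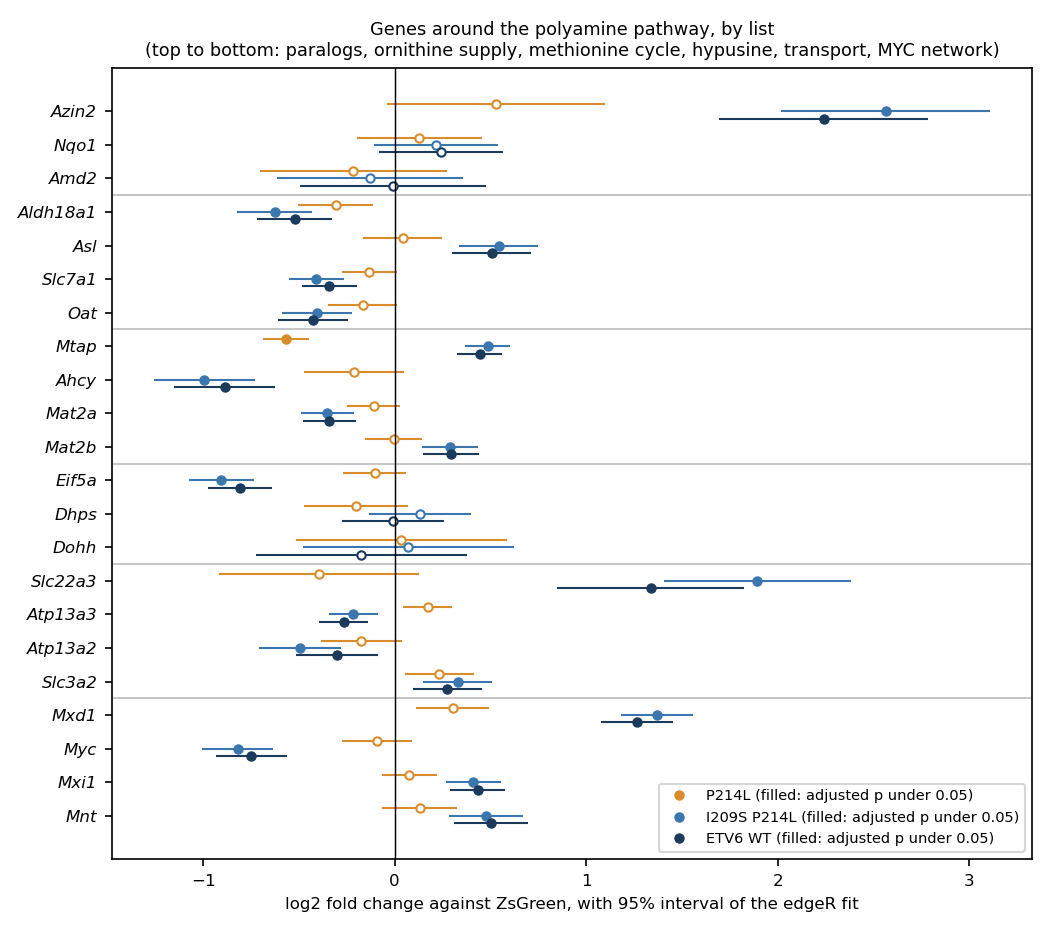
Log2 fold change against ZsGreen (horizontal axis) of up to 4 genes of each list around the polyamine pathway, for P214L, I209S P214L and ETV6 WT, with 95% intervals and filled points where the adjusted p is under 0.05. For Mtap, P214L lies at -0.57 and the other groups at 0.44 and 0.49, and for Eif5a and Myc P214L lies near 0.

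Over the 12 libraries, the genes whose log2 CPM was most like that of Odc1, among 9416 protein-coding genes, were Muc13 (Pearson r 0.997), Col15a1 (0.996), Cpsf3 (0.994), Ppat (0.993) and Ctps (0.993). Ppat and Ctps encode enzymes of purine and CTP synthesis. For Sat1 they were Tpd52 (0.984), Gda (0.973), Gpr141 (0.972), Alpk3 (0.972) and Trp53inp2 (0.970). These values describe the order of the 4 groups, which all 12 libraries share, and carry no p. The fold changes of the 9 members in the authors' deposited table had the same sign as those computed here in all 6 pairwise comparisons. Its calls differed for Oaz2 and Paox in ETV6 WT against ZsGreen and in P214L against ETV6 WT, and for Srm in P214L against ZsGreen.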

How the data were processed

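Per the submitters' processing notes, the authors aligned reads with HISAT2 2.0.5 to build mm39 and counted them with featureCounts 1.5.0-p3. The annotation release and the use of strand are not given in the sources used here. The deposited table holds a raw count per gene in each of 12 libraries, and, per the file headers, the authors' FPKM, gene positions and lengths. For each comparison the authors deposited their own log2 fold change and p-value, raw and adjusted, used only where named.

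The analysis ran edgeR 4.0.16 (R 4.3.3): filterByExpr over the groups, which left 14794 of 56748 genes, TMM scaling, a quasi-likelihood fit with 1 mean per group on all 12 libraries, and 6 pairwise comparisons, a joint test of the 4 groups and a test of the difference between 2 changes. P-values were adjusted by Benjamini-Hochberg over the 14794 genes, and a call is an adjusted p under 0.05. Where no other tool is named, an adjusted p belongs to edgeR. CPM levels use TMM-scaled library sizes, and intervals of fold changes are at 95%. Likeness used log2 CPM with a prior count of 2 and genes with a mean of at least 5 CPM. The scripts were tested on simulated counts.

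Members and lists were chosen with earlier results of these data known. The text names all members, Etv6, up to 4 genes of each list by the smallest adjusted p for any difference, and 5 genes most like Odc1 and Sat1. A few further list genes are named to account for small counts, after their values were seen: Slc25a15, Mycn, Mtrr, Mga, Mxd4 and Atp13a4, and the untested Arg1 and Arg2. Marker genes are named from their lists. Alternatives were DESeq2 1.42.0, limma-voom (limma 3.58.1), RLE and upper-quartile scaling, other filters, a replicate block, the libraries left out in turn or numbered 1 together, only the groups compared, and near-identical copies summed. Totals of 14301683 to 18607595 counts per library gave every tested member at least 357 counts in each, and Smox at most 11.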

Additional observations from a re-analysis of the deposited data

Results flagged for a closer look

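2 genes changed by different amounts in a pair of comparisons that share no library: from ZsGreen to ETV6 WT, and from P214L to I209S P214L. For Sat1 the test of the difference between the changes gave -0.69 on the log2 scale (edgeR quasi-likelihood test, adjusted p 0.00300), with a range of -0.75 to -0.60 over 21 alternatives, all of them called. Sat1 averaged 128 CPM with ZsGreen, 208 with P214L and 256 with each of the other groups. For Mtap the difference was 0.61 (adjusted p 0.000370), with means of 426 CPM with ZsGreen, 287 with P214L, 579 with ETV6 WT and 596 with I209S P214L. In both genes P214L differed from ZsGreen, upward for Sat1 and downward for Mtap, and I209S P214L was not called against ETV6 WT. By arithmetic, the test also sets these 2 comparisons against each other, so it is not independent of the P214L changes given above. What lies behind either difference was not tested.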

How the results depend on the processing

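Over the members' log2 fold changes there were 1377 values under an alternative, for 63 pairs of gene and comparison. Direction and side of the threshold were kept in 1317, the call was lost in 52, gained in 8, and no called change turned its sign. The lost calls belong to Amd1, Oaz2, Paox, Odc1 (P214L against ZsGreen) and Sat1 (P214L against ETV6 WT and I209S P214L against P214L), given beside their results. For the genes around the pathway, 126 of 4727 values lost and 57 gained a call.

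Members called with P214L against ZsGreen numbered 2, 1 to 2 with 1 library left out and 1 without the 4 libraries numbered 1. Genes called in that comparison numbered 751, 1188 by DESeq2 and 369 to 960 with 1 library left out. Between I209S P214L and ETV6 WT the count was 5 genes, against 22 by DESeq2, 3 by limma-voom, 38 with no filter, 3 with a CPM of at least 1 in all libraries, 8 without the libraries numbered 1, 3 with only the groups compared and 1 to 6 with 1 library left out. For the difference between the 2 changes it was 187 genes, against 366 by DESeq2, 385 with no filter and 115 to 223 with 1 library left out. The cause of these moves was not tested.

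The replicate block called 5790 genes with ETV6 WT against ZsGreen, where 5580 were called without it, and 8 members in both fits. Deviations of same-numbered libraries had a median correlation of 0.0226 over 18 pairs and 2 pairs exceeded 0.1, ETV6 WT 1 with I209S P214L 1 (r 0.528) and ETV6 WT 3 with I209S P214L 3 (r 0.254). The 36 pairs between groups with different numbers ran from -0.392 to 0.161. ZsGreen 1 had an r of 0.0900 with ETV6 WT 1 and of 0.0963 with I209S P214L 1. Since not every same-numbered pair exceeded 0.1, the numbers were not taken to pair the libraries. Still, ZsGreen 1, ETV6 WT 1 and I209S P214L 1 had the lowest 18S shares and the highest values on the second principal component. P214L 1 had the highest share and the lowest value. A source shared by the libraries numbered 1 was not tested. With the replicate block Oaz2 was called in P214L against ETV6 WT (adjusted p 0.0324). The test of any difference has no fold change per gene, so alternatives give only its counts. Smox was too low to test.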
